A study of Mus musculus with 16 samples.

Results

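The genes examined were those of collagen and laminin chains, of the basement membrane and of the matrix that surrounds cells, in LKR10 cells, a line from a mouse lung adenocarcinoma. A gene was a member when its symbol was that of a collagen chain (Col, a number, a, a number) or a laminin chain (Lama, Lamb or Lamc with a number), or when it was 1 of 20 genes named singly. The singly named genes with a row, from Hspg2, Nid1 and Agrn to Fn1, Bgn, Plod2 and Serpinh1, code for linkers, proteoglycans and glycoproteins of the matrix and for enzymes and a chaperone that handle collagen. By this rule 45 of the 12321 genes of the table were members: 22 collagen chains, 7 laminin chains and 16 singly named genes. The rule used names only and no measured value, but it was proposed with earlier results of these data known. Nid2, Fbn1, Dcn and Lox had no row in the table and were not analysed here.

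Polyadenylated RNA was sequenced in 16 libraries, 4 in each of 4 groups. Cells carried a pLKO lentiviral short hairpin RNA against Ankrd35 (shAnkrd35) or, as the control, against GFP (shGFP), and all went through puromycin selection (4 µg/ml, 48 h) followed by 96 h of growth. Growth was either in 0.5% methylcellulose, a viscous medium labelled as ultra low attachment culture (3D), or attached as a monolayer in DMEM with 10% serum (2D). The methylcellulose was made up in DMEM. The groups were therefore 3D shAnkrd35, 3D shGFP, 2D shAnkrd35 and 2D shGFP. Every cell, controls included, had been infected and selected, so uninfected cells are not among the groups. The labels name 1 hairpin target for each group and do not say how many hairpin sequences were used against Ankrd35.

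A basement membrane is a thin sheet of matrix under epithelia. Laminin heterotrimers of an alpha, a beta and a gamma chain and a network of type IV collagen form its main layers, and nidogen and the heparan sulfate proteoglycans perlecan and agrin link them. Fibrillar collagens, fibril-associated collagens and glycoproteins such as fibronectin make up the interstitial matrix, which fibroblasts produce in most of the lung. Collagen chains are hydroxylated and folded in the endoplasmic reticulum by prolyl and lysyl hydroxylases and the chaperone Hsp47 before they are secreted.

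Reads assigned to genes numbered 13.82 M (3D shAnkrd35 replicate 3) to 28.72 M (3D shGFP replicate 4) per library. Values are CPM, reads scaled to a library size after normalisation, as the deposited values hold it. That size was 1.03 to 1.05 times the reads assigned to genes in the 3D libraries and 0.946 to 0.986 times them in the 2D libraries, so CPM differ by these factors from a plain share of reads. In such bulk samples fewer cells of a type and less RNA per cell cannot be told apart. Ankrd35 itself had 9 to 12 reads in 3D shAnkrd35, 14 to 17 in 3D shGFP, 1 to 7 in 2D shAnkrd35 and 2 to 7 in 2D shGFP libraries. These counts are not scaled for depth: replicate 3 of 3D shAnkrd35 had 9 of 13.82 M reads, and replicate 4 of 3D shGFP had 16 of 28.72 M. They do not settle the hairpin labels in either growth type, and the directions below rest on the labels. Nothing in the labels says that the 4 replicates came from separate cultures, and the p-values therefore speak only of the variation among these libraries, part or all of which may be technical. Of 11 markers of lung adenocarcinoma epithelium 8 had rows, and they summed to 6615 to 7191 CPM in 3D shAnkrd35, 6008 to 6188 in 3D shGFP, 7043 to 8569 in 2D shAnkrd35 and 5274 to 5775 in the 2D shGFP libraries. Nkx2-1, Sftpc and Cldn4, which mark lung epithelium and its alveolar cells among them, had no row. Krt8 and Krt18 made up most of the sum of the 8 in every group. Epcam averaged 1.24 CPM in 3D shAnkrd35, 2.58 in 3D shGFP, 0.406 in 2D shAnkrd35 and 0.516 in 2D shGFP. Krt7 and Muc1 were highest in 3D shAnkrd35, at means of 2.68 and 2.80 CPM. Cdh1 averaged 518 CPM in 3D shAnkrd35, 507 in 3D shGFP, 442 in 2D shAnkrd35 and 508 in 2D shGFP. In the same order Krt19 averaged 721, 632, 415 and 313 CPM, and Foxa2 averaged 11.3, 10.2, 14.1 and 10.7 CPM. Of 16 fibroblast markers 7 had rows, the members Col1a1, Col1a2 and Col3a1 among them, with a sum of 23.8 to 59.0 CPM in 3D shAnkrd35, 40.7 to 46.9 in 3D shGFP, 124 to 147 in 2D shAnkrd35 and 101 to 109 in the 2D shGFP libraries. Dcn, Lum, Thy1, Pdpn, Fap and Postn were among those with no row.

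Most of these genes were lower with shAnkrd35 than with shGFP in 2D, fewer were in 3D, and growth in 3D moved members both ways. In 3D, 11 members were higher in shAnkrd35 than in shGFP libraries and 18 were lower, at an adjusted p under 0.05 from limma with Benjamini-Hochberg adjustment over the 12320 genes tested. That is 24.4% and 40% of the members, beside 15.0% and 14.6% of all genes tested. In 2D, 7 members were higher in shAnkrd35 and 31 were lower, which is 15.6% and 68.9% of the members, beside 29.0% and 28.8% of all genes. The median log2 fold change of the members was -0.13 in 3D and -0.42 in 2D, where that of all genes was -0.0005 and 0.0073. With shAnkrd35, 19 members were higher and 19 lower in 3D than in 2D, 42.2% each way, beside 34.4% higher and 36.0% lower of all genes. With shGFP, 12 members were higher in 3D than in 2D and 25 were lower, 26.7% and 55.6% of members, beside 35.2% and 32.1% of all genes. The members' median was 0.068 with shAnkrd35 and -0.49 with shGFP. The shares called lower in both hairpin comparisons and with shGFP in 3D were thus above those of all genes, while the shares of the growth comparison with shAnkrd35 lay closer to them.

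**Figure D1:**
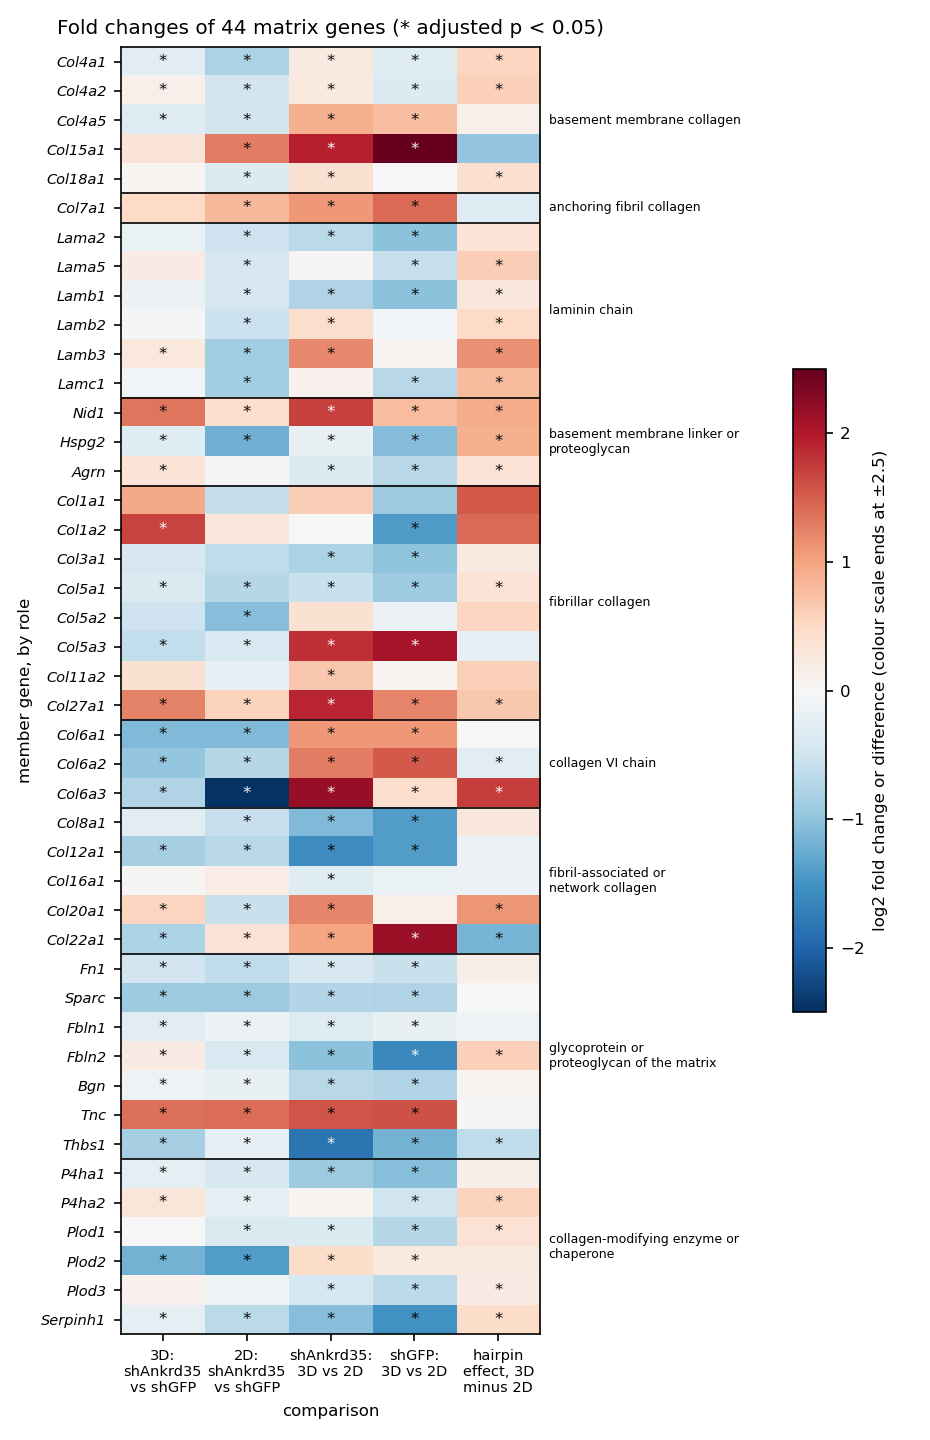
Log2 fold changes of 44 members (rows, grouped by role) in 4 comparisons and in the interaction, the 3D hairpin effect less that in 2D (columns). Red is higher in the first group named, blue is lower, and a star marks an adjusted p under 0.05. The 2D hairpin column is mostly blue (31 lower, 6 higher) and the column of the difference mostly red (20 higher, 3 lower).

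Summed over the 45 members, the reads made up 1.23 ± 0.023% of a library in 3D shAnkrd35, 1.48 ± 0.032% in 3D shGFP, 1.56 ± 0.054% in 2D shAnkrd35 and, in 2D shGFP, 2.16 ± 0.046% (mean ± SD, n = 4 each). No groups overlapped in this sum: the highest library of 3D shGFP had 1.51%, below the lowest of 2D shAnkrd35 at 1.53%. Of the members' reads, 53.0% fell on 3 genes, Bgn, Fn1 and Fbln2. By level, 21 members averaged over 100 CPM, 9 had 10 to 100 CPM and 15 were under 10 CPM. In RPKM, CPM divided by exonic length in kilobases, which allows levels of different genes to be compared, the members with the highest level were Bgn (541), Fbln2 (353), Fn1 (262), Serpinh1 (233) and Col6a1 (131 RPKM, each a mean of 16 libraries). Sparc, Lama5 and Col18a1 followed at 92.1, 91.9 and 91.4 RPKM, means that differ by less than the groups do within each gene. The lowest were Lama2 at 0.0739, Col15a1 at 0.165 and Col6a3 at 0.166 RPKM.

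**Figure D2:**
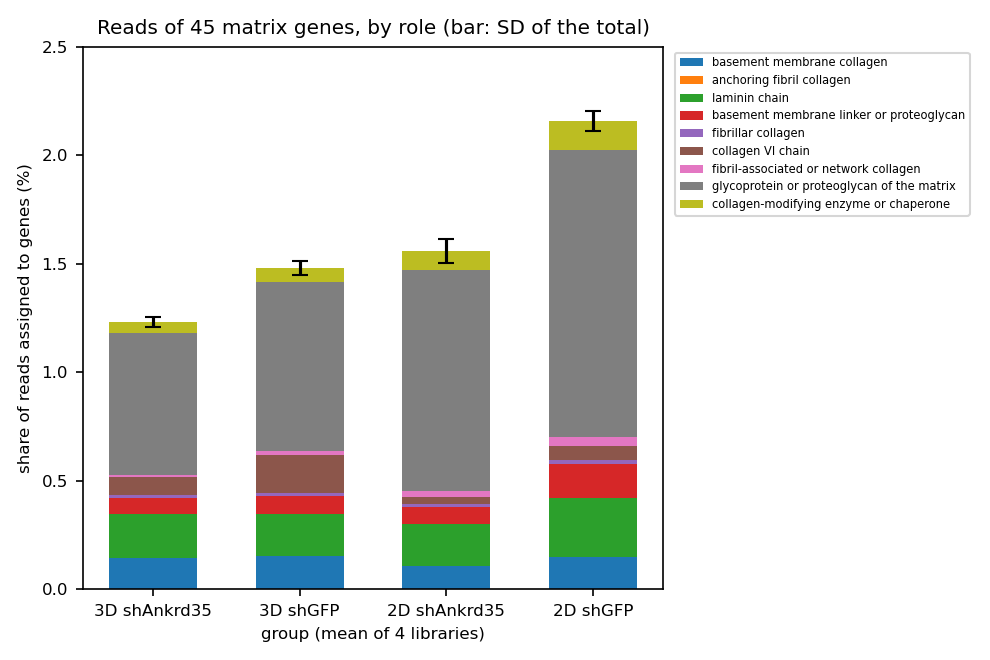
Share of reads assigned to genes (%) that fell on the 45 members, by group and stacked by role, as the mean of 4 libraries. The black bar is the SD of the total. The total was 1.23% in 3D shAnkrd35, beside 2.16% in the 2D shGFP libraries, and the matrix glycoproteins and proteoglycans made up the largest layer in every group.

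Among the collagens of the basement membrane, both chains of the common type IV network were lower in shAnkrd35 than in shGFP in 2D, and 3D brought them down with shGFP and up with shAnkrd35. Col4a1 and Col4a2 code for the alpha1 and alpha2 chains, which join in a trimer found in nearly every basement membrane. Col4a1 had 346 ± 9.52 CPM in 3D shAnkrd35, 417 ± 15.4 in 3D shGFP, 295 ± 16.9 in 2D shAnkrd35 and, for 2D shGFP, 513 ± 19.1 (mean ± SD, n = 4, as are all such values below). No 2 of the groups compared overlapped. Its log2 fold change with the hairpin was -0.27 ± 0.046 (SE, adjusted p = 2.65e-04) in 3D and -0.80 ± 0.046 (SE, adjusted p = 6.36e-10) in 2D. Between growth types it was 0.23 ± 0.046 (SE, adjusted p = 2.68e-04) with shAnkrd35 and -0.30 ± 0.046 (SE, adjusted p = 2.30e-05) with shGFP. Col4a2 had 208 ± 7.13 CPM in 3D shAnkrd35, 191 ± 4.26 in 3D shGFP, 175 ± 10.1 in 2D shAnkrd35 and, for 2D shGFP, 242 ± 8.36. It fell in 2D shAnkrd35 against 2D shGFP, -0.47 ± 0.045 (SE, adjusted p = 2.81e-07), and the value in 3D was 0.12 ± 0.045 (SE, adjusted p = 0.0485). That 3D call ended in 13 of the 16 fits that left out 1 library, all but those without replicates 1 and 4 of 2D shAnkrd35 and replicate 3 of 2D shGFP (adjusted p = 0.0515 to 0.146), and the value was 0.012 (adjusted p = 0.854) after removal of a trend with transcript length and GC content. Between growth types Col4a2 changed by 0.25 ± 0.045 (SE, adjusted p = 1.04e-04) with shAnkrd35 and by -0.34 ± 0.045 (SE, adjusted p = 4.29e-06) with shGFP. Col4a1 and Col4a2 were the members called in opposite directions by the 2 growth comparisons. With the length and GC trend removed, the shGFP values were -0.12 (adjusted p = 0.0179) for Col4a1 and -0.11 (adjusted p = 0.0260) for Col4a2, of the same sign and smaller, and Col4a2 with shAnkrd35 was 0.41 (adjusted p = 7.81e-08). With libraries centred on their medians, the shAnkrd35 values were 0.14 (adjusted p = 0.0246) for Col4a1 and 0.16 (adjusted p = 0.0120) for Col4a2.

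The 2 genes lie head to head on chromosome 8 of the mm10 genome (GRCm38), Col4a1 on the minus strand at chr8:11198423-11312826 and Col4a2 on the plus strand at chr8:11312805-11449287, so that their annotated ends overlap by 22 bases. The promoter windows are shown because the genes share this stretch and yet did not change to the same extent. Each window runs from 250 bases before to 50 bases after the start in RefSeq (GRCm38.p6), at chr8:11312777-11313076 for Col4a1 and chr8:11312555-11312854 for Col4a2, each on its own strand, and 78 bases (chr8:11312777-11312854) are in both. Capitals mark matches, on either strand, to 4 motifs. The GC box was searched as GGGCGG. The CCAAT box was searched as its name spells it. The TATA box was searched as TATAAA. The AP-1 element was searched as TGAGTCA.
Col4a1: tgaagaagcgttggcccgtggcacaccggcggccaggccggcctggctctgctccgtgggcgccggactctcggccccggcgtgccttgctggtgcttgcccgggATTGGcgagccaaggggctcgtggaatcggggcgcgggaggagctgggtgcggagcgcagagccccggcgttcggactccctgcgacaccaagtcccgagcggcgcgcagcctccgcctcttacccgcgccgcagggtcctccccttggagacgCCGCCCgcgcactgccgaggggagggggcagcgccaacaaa
Col4a2: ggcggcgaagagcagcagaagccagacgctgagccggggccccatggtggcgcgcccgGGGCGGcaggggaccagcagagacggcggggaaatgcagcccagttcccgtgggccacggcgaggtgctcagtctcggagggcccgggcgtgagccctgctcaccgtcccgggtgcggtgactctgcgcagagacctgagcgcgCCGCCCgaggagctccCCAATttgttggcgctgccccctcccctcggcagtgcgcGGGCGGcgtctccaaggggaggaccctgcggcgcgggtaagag
The Col4a1 window held 1 GC box and 1 CCAAT box, and the Col4a2 window held 3 GC boxes and 1 CCAAT box. Of the GC boxes, 1 lay in the shared bases, and neither window held a TATA box or an AP-1 element. Of all 32851 mouse promoter windows of this length, 35.7% held a GC box, 37.4% a CCAAT box, 13.6% a TATA box and 5.20% an AP-1 element. The 36 members with a window had 42 of them, of which 71.4% held a GC box, 26.2% a CCAAT box, 14.3% a TATA box and 2.38% an AP-1 element. The members' windows had a median GC content of 60.7%, against 52.7% for all windows. These are matches of letters, not sites of binding.

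The ratio of the 2 chains was lower with shAnkrd35 in both growth types, and no difference between growth types passed the test. Within a library, Col4a1 CPM over Col4a2 CPM was 1.66 ± 0.087 in 3D shAnkrd35, 2.18 ± 0.051 in 3D shGFP, 1.68 ± 0.051 in 2D shAnkrd35 and 2.12 ± 0.045 in the 2D shGFP libraries. All 8 shAnkrd35 libraries were below all 8 shGFP libraries. The ratio differed by -0.39 between 3D shAnkrd35 and 3D shGFP and by -0.33 between 2D shAnkrd35 and 2D shGFP, on the log2 scale (exact permutation test, two-sided, p = 0.0286 each, the smallest value that 4 against 4 libraries allow, adjusted p = 0.0381 over the 24 ratio tests made). Between growth types the difference was -0.018 with shAnkrd35 (exact p = 0.771) and 0.04 with shGFP (exact p = 0.171). The ratios were chosen with the genes' values known. A trend with length or GC content would touch a ratio too, and the ratios were not recomputed without it.

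**Figure D3:**
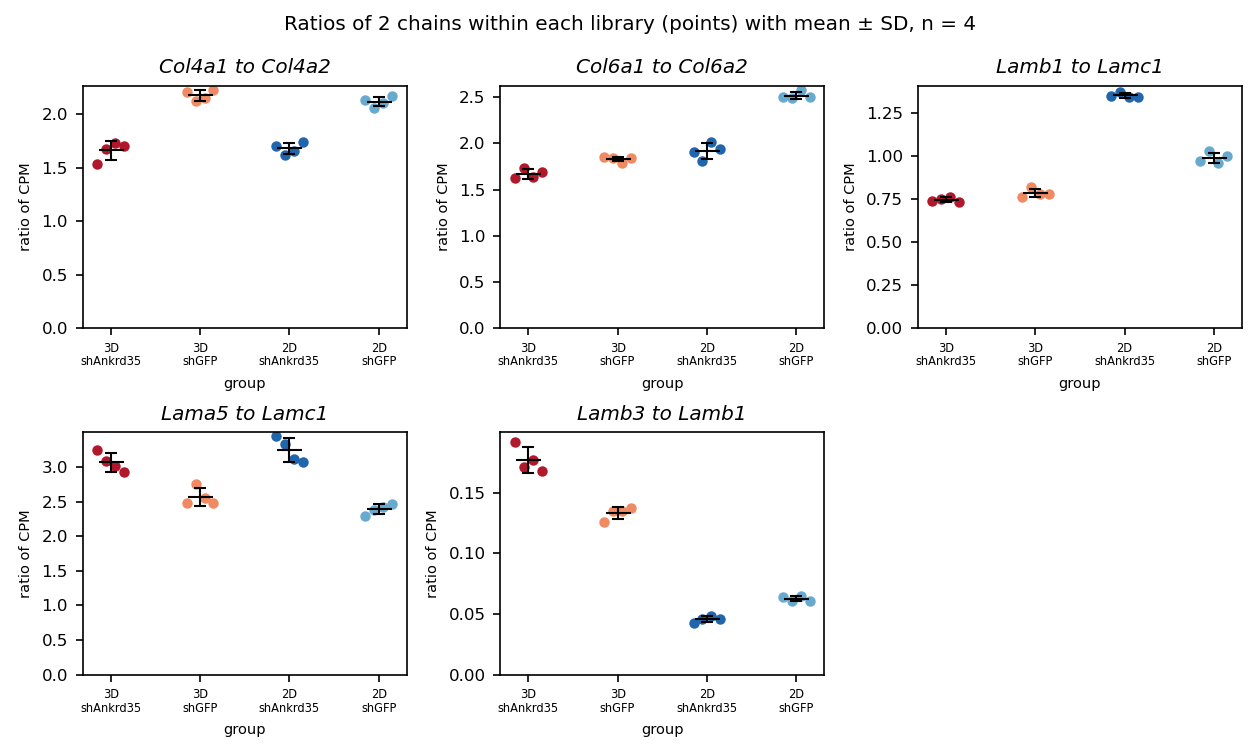
Ratio of the CPM of 2 chains within each library, for 5 pairs. Points are libraries, black marks the mean ± SD (n = 4), and each axis starts at 0. In the Col4a1 to Col4a2 panel the shAnkrd35 libraries stand apart from the shGFP libraries in both growth types.

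Of the other basement membrane collagens, Col4a5 and Col18a1 were lower in shAnkrd35 in 2D, and Col15a1 was higher. Col4a5, the alpha5 chain of a more restricted type IV network, rose in 3D with either hairpin, by 0.88 ± 0.068 (SE, adjusted p = 9.19e-09) with shAnkrd35 and 0.75 ± 0.068 (SE, adjusted p = 4.96e-08) with shGFP on the log2 scale. It fell with the Ankrd35 hairpin in both growth types, with values of -0.33 in 3D and -0.46 in 2D. Col18a1, whose C-terminal fragment is endostatin, had 726, 669, 691 and 681 CPM in 3D shAnkrd35 libraries and 669, 641, 674 and 683 CPM in 3D shGFP libraries, and 556, 540.4, 524 and 510.4 CPM in 2D shAnkrd35 libraries and 681, 648, 693 and 679 CPM in 2D shGFP libraries. The 2D shAnkrd35 libraries were the lowest, all below the other 12. Its log2 fold change was -0.34 ± 0.041 (SE, adjusted p = 3.09e-06) for the hairpin in 2D and 0.052 ± 0.041 (SE, adjusted p = 0.376) in 3D, where the groups overlapped. Col15a1, a collagen of the outer face of basement membranes with its own restin fragment, had 1.83, 1.62, 2.18 and 2.34 CPM in 3D shAnkrd35 libraries and 2.04, 1.44, 1.27 and 1.58 CPM in 3D shGFP libraries, and 0.368, 0.38, 0.645 and 0.446 CPM in 2D shAnkrd35 libraries and 0.0805, 0.105, 0.0952 and 0.304 CPM in 2D shGFP libraries. The 3D groups overlapped and both were above the 2D groups. In 2D shGFP, 3 of 4 libraries had about 0.1 CPM, and replicate 4 had 0.304 CPM. It rose in 3D by 1.94 ± 0.27 (SE, adjusted p = 8.30e-06) with shAnkrd35 and by 2.90 ± 0.27 (SE, adjusted p = 6.89e-08) with shGFP, and in 2D the hairpin value was 1.29 ± 0.27 (SE, adjusted p = 7.67e-04). At counts this low the size depends on the value added before the log: with log2(CPM + 1) these 3 were 1.03, 1.17 and 0.35, all still called. Col7a1, the collagen of the anchoring fibrils that tie basement membrane to the matrix below, had 8.07, 8.62, 5.68 and 6.81 CPM in 3D shAnkrd35 libraries and 5.33, 5.88, 4.78 and 4.47 CPM in 3D shGFP libraries, and 2.67, 3.42, 4.52 and 3.02 CPM in 2D shAnkrd35 libraries and 1.41, 2.93, 1.62 and 1.77 CPM in 2D shGFP libraries. Its 3D libraries were above the 2D libraries of the same hairpin, while the hairpin groups overlapped in both growth types. The rise in 3D was 1.09 ± 0.20 (SE, adjusted p = 1.61e-04) with shAnkrd35 and 1.41 ± 0.20 (SE, adjusted p = 1.22e-05) with shGFP. The hairpin value in 2D was 0.82 ± 0.20 (SE, adjusted p = 0.00281).

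Of the 7 laminin chains, 6 were lower in shAnkrd35 than in shGFP in 2D, whereas in 3D none was lower and Lamb3 was among those higher. For 6 of the 7 the hairpin effect was higher in 3D than in 2D by the test of that difference, and Lama2 did not pass it (0.35 ± 0.30 (SE, adjusted p = 0.386)). Of the alpha chains, 2 had rows. Lama5, the alpha chain of the laminins common in adult epithelia, had 1051, 986, 964 and 1015 CPM in 3D shAnkrd35 libraries and 874, 867, 927 and 839 CPM in 3D shGFP libraries, and 1203, 949.5, 891 and 905 CPM in 2D shAnkrd35 libraries and 1252, 1211, 1429 and 1379 CPM in 2D shGFP libraries. The highest group was 2D shGFP, and the 3D shAnkrd35 libraries lay above the 3D shGFP libraries without overlap. Its log2 fold change was -0.42 ± 0.079 (SE, adjusted p = 2.71e-04) for the hairpin in 2D, 0.20 ± 0.079 (SE, adjusted p = 0.0735) in 3D, and -0.59 ± 0.079 (SE, adjusted p = 5.59e-06) for 3D with shGFP, the last being -0.33 (adjusted p = 1.02e-05) once the length and GC trend was removed. The difference of the hairpin effects was 0.62 ± 0.11 (SE, adjusted p = 6.33e-04). Lama2, the alpha chain of muscle and nerve laminins, had 0.652, 0.677, 0.702 and 1.09 CPM in 3D shAnkrd35 libraries and 0.611, 0.857, 1.27 and 0.840 CPM in 3D shGFP libraries, and 1.43, 1.05, 1.29 and 1.39 CPM in 2D shAnkrd35 libraries and 1.69, 1.94, 1.76 and 2.08 CPM in 2D shGFP libraries. It was at most 2.08 CPM in any library, and replicate 4 of 3D shAnkrd35 stood above the other 3 of its group. It fell in 3D by 1.03 ± 0.21 (SE, adjusted p = 4.31e-04) with shGFP and by 0.68 ± 0.21 (SE, adjusted p = 0.00888) with shAnkrd35, where the groups overlapped in that 1 library. Its hairpin value in 2D was -0.51 ± 0.21 (SE, adjusted p = 0.0487). That call ended in 12 of the 16 fits that left out 1 library, all but those without replicate 4 of 3D shAnkrd35, replicates 1 and 3 of 3D shGFP and replicate 1 of 2D shAnkrd35 (adjusted p = 0.0522 to 0.136), and the value was -0.28 (adjusted p = 0.255) with the length and GC trend removed. On the scale of log2(CPM + 1) the values of Lama2 were -0.33 for the hairpin in 2D, and -0.37 with shAnkrd35 and -0.61 with shGFP in 3D, all called.

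Among the beta chains, Lamb1 is the most widespread, Lamb2 marks synaptic, vascular and kidney laminins, and Lamb3 belongs to a laminin of epithelial attachment. Lamb1 had 239, 238, 244 and 253 CPM in 3D shAnkrd35 libraries and 268, 257, 282 and 264 CPM in 3D shGFP libraries, and 471, 391, 383 and 393 CPM in 2D shAnkrd35 libraries and 529, 520.5, 566 and 559.7 CPM in 2D shGFP libraries. Both 3D groups were below both 2D groups, and replicate 1 of 2D shAnkrd35 was above the other 3 of its group. Lamb1 fell in 3D by 0.75 ± 0.058 (SE, adjusted p = 9.24e-09) with shAnkrd35 and 1.02 ± 0.058 (SE, adjusted p = 1.05e-10) with shGFP, and by 0.41 ± 0.058 (SE, adjusted p = 1.66e-05) with the hairpin in 2D. Lamb2 had 329.6 ± 17.7 CPM in 3D shAnkrd35, 337 ± 16.1 in 3D shGFP, 243 ± 28.9 in 2D shAnkrd35 and, for 2D shGFP, 352 ± 23.4. Only the 2D shAnkrd35 group stood apart, -0.54 ± 0.071 (SE, adjusted p = 9.76e-06) against 2D shGFP and 0.45 ± 0.071 (SE, adjusted p = 3.32e-05) in 3D shAnkrd35 against it. Lamb3 had 46.0, 40.8, 43.1 and 42.4 CPM in 3D shAnkrd35 libraries and 33.6, 34.8, 38.0 and 36.3 CPM in 3D shGFP libraries, and 19.9, 18.1, 18.6 and 18.0 CPM in 2D shAnkrd35 libraries and 33.7, 31.8, 36.8 and 34.1 CPM in 2D shGFP libraries. The 2D shAnkrd35 libraries were lowest and the 3D shAnkrd35 libraries highest, with the shGFP groups overlapping between them. The hairpin value was 0.27 ± 0.059 (SE, adjusted p = 0.00216) in 3D and -0.87 ± 0.059 (SE, adjusted p = 5.03e-09) in 2D, and their difference was 1.14 ± 0.083 (SE, adjusted p = 1.12e-07). With the length and GC trend removed, the 3D value was 0.18 (adjusted p = 0.0148). Of the 45 members Lamb3 had the smallest p in the test of the difference between the hairpin effects. The ratio of Lamb3 to Lamb1 within a library was 0.177 ± 0.011 in 3D shAnkrd35, 0.133 ± 0.0053 in 3D shGFP, 0.0457 ± 0.0026 in 2D shAnkrd35 and 0.0627 ± 0.002 in the 2D shGFP libraries. All 4 comparisons of this ratio gave the smallest exact p possible, 0.0286 (adjusted p = 0.0381), with a log2 difference of 0.41 for the hairpin in 3D and -0.46 in 2D.

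Lamc1 (chr1:153218922-153332786, minus strand), the gamma chain of most laminins, had 327 ± 12.9 CPM in 3D shAnkrd35, 342 ± 20.6 in 3D shGFP, 304 ± 30.9 in 2D shAnkrd35 and, for 2D shGFP, 551 ± 34.1. The 2D shGFP group was above the other 3, which overlapped. Its hairpin value was -0.86 ± 0.066 (SE, adjusted p = 1.90e-08) in 2D and -0.063 ± 0.066 (SE, adjusted p = 0.524) in 3D. Per length, Lamc1 averaged 46.1 RPKM. The ratio of Lamb1 to Lamc1 was 0.744 ± 0.014 in 3D shAnkrd35, 0.784 ± 0.024 in 3D shGFP, 1.35 ± 0.015 in 2D shAnkrd35 and 0.988 ± 0.03 in the 2D shGFP libraries, and that of Lama5 to Lamc1 was 3.07 ± 0.14 in 3D shAnkrd35, 2.57 ± 0.13 in 3D shGFP, 3.24 ± 0.17 in 2D shAnkrd35 and 2.39 ± 0.071 in the 2D shGFP libraries. The first differed by 0.45 with the hairpin in 2D (exact p = 0.0286) and by -0.075 in 3D (exact p = 0.0571), and the second by 0.44 and 0.26 (exact p = 0.0286 each).

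The linkers and proteoglycans of the basement membrane moved in different directions. Nid1, nidogen 1, which bridges laminin and type IV collagen, had 3.87, 3.84, 3.79 and 4.16 CPM in 3D shAnkrd35 libraries and 1.30, 1.6, 1.35 and 1.75 CPM in 3D shGFP libraries, and 1.24, 1.19, 1.29 and 0.891 CPM in 2D shAnkrd35 libraries and 1.09, 0.681, 0.904 and 0.709 CPM in 2D shGFP libraries. The 3D shAnkrd35 libraries were above all 12 others, and the 2D groups overlapped. It rose with the hairpin in 3D by 1.34 ± 0.17 (SE, adjusted p = 1.46e-05), and in 3D against 2D by 1.70 ± 0.17 (SE, adjusted p = 2.05e-07) with shAnkrd35 and 0.78 ± 0.17 (SE, adjusted p = 7.13e-04) with shGFP. The 2D hairpin value was 0.42 ± 0.17 (SE, adjusted p = 0.0441). That call ended in 11 of the 16 fits that left out 1 library, all but those without replicates 1 and 4 of 3D shGFP, replicate 4 of 2D shAnkrd35 and replicates 1 and 3 of 2D shGFP (adjusted p = 0.0506 to 0.122). With log2(CPM + 1) it was 0.22 (adjusted p = 0.0625), and the shGFP growth value was 0.44 (adjusted p = 8.89e-04). Hspg2, which codes for perlecan, had 553, 515, 536 and 542 CPM in 3D shAnkrd35 libraries and 682, 639.6, 705 and 610.1 CPM in 3D shGFP libraries, and 703, 597, 583 and 575 CPM in 2D shAnkrd35 libraries and 1306, 1308, 1540.5 and 1459.8 CPM in 2D shGFP libraries. The 2D shGFP libraries were highest, and no 2 compared groups overlapped. Its hairpin value was -1.19 ± 0.069 (SE, adjusted p = 6.36e-10) in 2D and -0.29 ± 0.069 (SE, adjusted p = 0.00358) in 3D, with a difference of 0.90 ± 0.097 (SE, adjusted p = 5.67e-06). In 3D it fell by 1.09 ± 0.069 (SE, adjusted p = 4.47e-10) with shGFP, and the value with shAnkrd35 was -0.19 ± 0.069 (SE, adjusted p = 0.0197). That last call ended in 2 of the 16 fits that left out 1 library, without replicate 2 of 3D shAnkrd35 or replicate 1 of 2D shAnkrd35 (adjusted p = 0.0560 to 0.0636). Agrn, which codes for agrin, had 180.0 ± 2.52 CPM in 3D shAnkrd35, 143 ± 4.49 in 3D shGFP, 227 ± 8.06 in 2D shAnkrd35 and, for 2D shGFP, 231 ± 8.19. It fell in 3D with either hairpin (-0.34 with shAnkrd35 and -0.70 with shGFP) and rose with the hairpin in 3D, 0.33 ± 0.039 (SE, adjusted p = 6.68e-06). With the length and GC trend removed, the 3D hairpin values were 0.21 (adjusted p = 3.39e-05) for Agrn and -0.46 (adjusted p = 7.13e-08) for Hspg2.

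**Figure D4:**
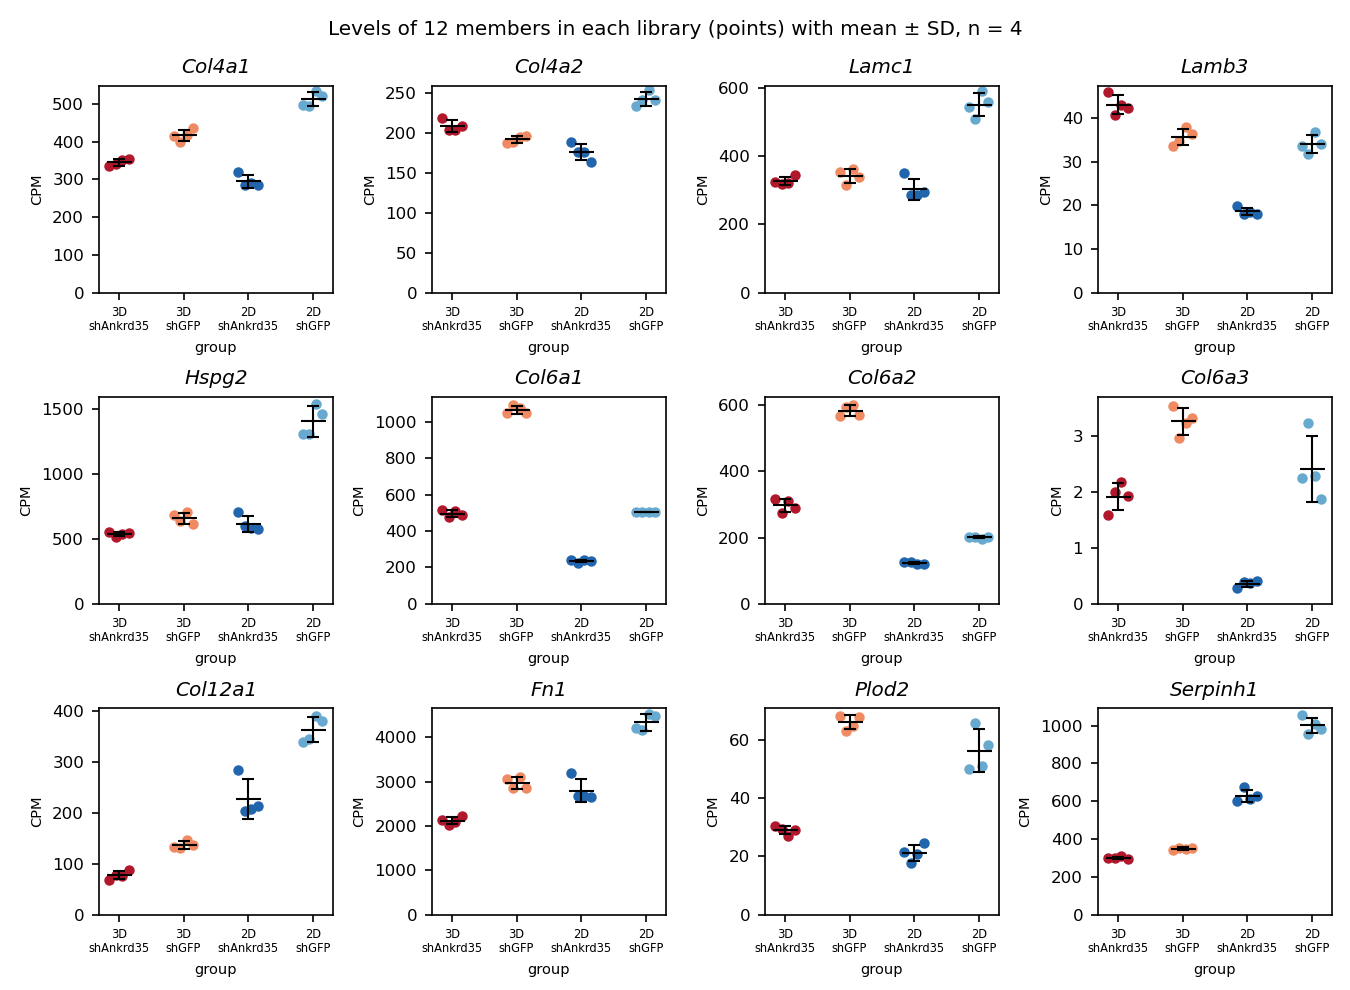
CPM of 12 members in each library (points, axis from 0) with mean ± SD (n = 4), in the order 3D shAnkrd35, 3D shGFP, 2D shAnkrd35, 2D shGFP. Hspg2 and Lamc1 are highest in 2D shGFP, Col6a1 and Col6a2 in 3D shGFP, and Lamb3 in 3D shAnkrd35.

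Fibrillar collagens were mostly low, and the chains of type I and III, the main collagens of fibroblasts, were at most 6.44 CPM in all libraries but 1. That library was replicate 3 of 3D shAnkrd35, the one with the fewest reads. There Col1a1, the alpha1 chain of type I, had 22.7 CPM, against 2.14 to 4.73 in the other 3 of its group. Col1a1 passed no test, with 0.94 ± 0.54 (SE, adjusted p = 0.219) for the hairpin in 3D and -0.59 ± 0.54 (SE, adjusted p = 0.365) in 2D. Col1a2, the alpha2 chain of type I, had 1.67, 1.66, 10.5 and 2.91 CPM in 3D shAnkrd35 libraries and 0.733, 0.779, 0.695 and 1.55 CPM in 3D shGFP libraries, and 2.76, 3.38, 3.04 and 3.07 CPM in 2D shAnkrd35 libraries and 2.70, 2.20, 2.86 and 2.33 CPM in 2D shGFP libraries. Every 3D shAnkrd35 library was above every 3D shGFP library, where replicate 4 stood above the other 3. Its hairpin value in 3D was 1.68 ± 0.43 (SE, adjusted p = 0.00796). Without replicate 3 of 3D shAnkrd35 it was 1.10 (adjusted p = 0.00360), and in a fit on the 8 libraries of 3D only it had an adjusted p of 0.0663. In 3D against 2D with shGFP it fell, -1.41 ± 0.43 (SE, adjusted p = 0.00936), or -0.88 (adjusted p = 0.0334) on the log2(CPM + 1) scale. Col3a1, the type III chain, had 1.43, 1.43, 4.77 and 2.29 CPM in 3D shAnkrd35 libraries and 2.52, 2.57, 3.28 and 3.50 CPM in 3D shGFP libraries, and 3.27, 3.71, 4.10 and 4.31 CPM in 2D shAnkrd35 libraries and 5.43, 6.18, 6.28 and 6.03 CPM in 2D shGFP libraries. In 2D the hairpin groups did not overlap (-0.63 ± 0.27 (SE, adjusted p = 0.0573)), and in 3D they did. It fell in 3D by 1.0 ± 0.27 (SE, adjusted p = 0.00400) with shGFP, and by 0.79 ± 0.27 (SE, adjusted p = 0.0168) with shAnkrd35, where replicate 3 of 3D shAnkrd35 was above all 4 libraries of 2D shAnkrd35. The shAnkrd35 call ended in 2 of the 16 fits that left out 1 library, without replicates 1 or 2 of 3D shAnkrd35 (adjusted p = 0.0651 to 0.0653). The 4 fibroblast markers with rows that are not members (Pdgfra, Pdgfrb, Acta2 and Meox2) summed to 21.1 CPM in replicate 3 of 3D shAnkrd35. The other 3D shAnkrd35 libraries had 18.4 to 19.8 CPM. Of these markers, Pdgfrb was higher in replicate 3 (9.12 CPM, against 6.65 to 6.81) and Meox2 was lower (0.982 CPM, against 1.61 to 2.18). Pdgfra and Acta2 lay within the range of the other libraries. The part of these 4 markers in the collagen values was not tested.

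Type V collagen regulates the start and width of fibrils. Col5a1 was lower with the hairpin in both growth types, with 70.7 ± 3.04 CPM in 3D shAnkrd35, 90.7 ± 1.64 in 3D shGFP, 104 ± 1.27 in 2D shAnkrd35 and, for 2D shGFP, 169 ± 8.57. The hairpin value was -0.36 in 3D and -0.70 in 2D, and 3D was lower than 2D with either hairpin. Col5a2 lies 24.6 kb from Col3a1 on chromosome 1, with its 3′ end toward that of Col3a1. It had 3.06, 3.35, 4.84 and 2.08 CPM in 3D shAnkrd35 libraries and 4.36, 4.01, 4.71 and 5.45 CPM in 3D shGFP libraries, and 2.26, 1.62, 3.23 and 2.87 CPM in 2D shAnkrd35 libraries and 4.71, 5.39, 4.85 and 5.57 CPM in 2D shGFP libraries. The 2D groups did not overlap, and the 3D groups did. It fell with the hairpin in 2D by 1.06 ± 0.22 (SE, adjusted p = 6.82e-04), and its value in 3D was -0.52 ± 0.22 (SE, adjusted p = 0.0880). Col5a3 had 7.54, 7.68, 6.74 and 6.70 CPM in 3D shAnkrd35 libraries and 10.5, 12.6, 11.6 and 9.61 CPM in 3D shGFP libraries, and 1.79, 2.23, 2.3 and 1.58 CPM in 2D shAnkrd35 libraries and 2.25, 2.88, 2.71 and 2.48 CPM in 2D shGFP libraries. Both 3D groups were above both 2D groups, opposite in direction to Col5a1. The rise in 3D was 1.82 ± 0.13 (SE, adjusted p = 3.20e-09) with shAnkrd35 and 2.06 ± 0.13 (SE, adjusted p = 4.11e-10) with shGFP, and the hairpin value in 3D was -0.62 ± 0.13 (SE, adjusted p = 0.00150). Its lower 2D value, -0.38 ± 0.13 (SE, adjusted p = 0.0192), belonged to overlapping groups. That call ended in 2 of the 16 fits that left out 1 library, without replicate 4 of 2D shAnkrd35 or replicate 2 of 2D shGFP (adjusted p = 0.0572 to 0.0698), and in a fit on the 8 libraries of 2D alone (adjusted p = 0.0846). Col27a1, a fibrillar collagen of cartilage, had 10.1, 10.6, 12.9 and 10.7 CPM in 3D shAnkrd35 libraries and 4.52, 4.99, 4.63 and 4.30 CPM in 3D shGFP libraries, and 2.67, 3.04, 2.81 and 3.07 CPM in 2D shAnkrd35 libraries and 2.25, 1.88, 1.95 and 1.67 CPM in 2D shGFP libraries. No compared groups overlapped, and it was higher with the hairpin and in 3D throughout: 1.24 ± 0.11 (SE, adjusted p = 2.88e-07) for the hairpin in 3D, 0.56 ± 0.11 (SE, adjusted p = 4.38e-04) in 2D, 1.9 ± 0.11 (SE, adjusted p = 2.73e-10) for 3D with shAnkrd35 and 1.22 ± 0.11 (SE, adjusted p = 5.05e-08) with shGFP. Col11a2, also a cartilage collagen, passed the test only for 3D against 2D with shAnkrd35, 0.68 ± 0.18 (SE, adjusted p = 0.00276).

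Collagen VI forms beaded filaments beside basement membranes, from 1 alpha1, 1 alpha2 and 1 alpha3 chain. All 3 of its chains in the table were lower with the Ankrd35 hairpin in both growth types and higher in 3D with either hairpin. Col6a1 had 514, 477, 507 and 487 CPM in 3D shAnkrd35 libraries and 1052, 1095, 1078 and 1048 CPM in 3D shGFP libraries, and 238, 225, 241 and 233 CPM in 2D shAnkrd35 libraries and 503, 506, 505 and 504 CPM in 2D shGFP libraries. Col6a2 had 317, 274, 310.1 and 289 CPM in 3D shAnkrd35 libraries and 569, 596, 601 and 570.1 CPM in 3D shGFP libraries, and 125, 125, 119 and 120.2 CPM in 2D shAnkrd35 libraries and 201, 203, 196 and 201 CPM in 2D shGFP libraries. In both genes the 3D shGFP libraries were highest, the 2D shAnkrd35 libraries were lowest, and no compared groups overlapped. The hairpin value of Col6a1 was -1.11 ± 0.037 (SE, adjusted p = 3.04e-12) in 3D and -1.11 ± 0.037 (SE, adjusted p = 2.16e-12) in 2D, and its growth value was 1.08 ± 0.037 (SE, adjusted p = 2.90e-13) with shAnkrd35 and 1.08 ± 0.037 (SE, adjusted p = 1.29e-13) with shGFP. The difference of its hairpin effects, 3D less 2D, was 0.0003 ± 0.052 (SE, adjusted p = 0.996). For Col6a2 the hairpin value was -0.97 ± 0.045 (SE, adjusted p = 1.25e-10) in 3D and -0.71 ± 0.045 (SE, adjusted p = 1.76e-09) in 2D, and the growth value was 1.28 ± 0.045 (SE, adjusted p = 3.86e-13) with shAnkrd35 and 1.54 ± 0.045 (SE, adjusted p = 1.44e-14) with shGFP. The ratio of Col6a1 to Col6a2 was 1.67 ± 0.053 in 3D shAnkrd35, 1.83 ± 0.024 in 3D shGFP, 1.92 ± 0.087 in 2D shAnkrd35 and 2.52 ± 0.038 in the 2D shGFP libraries. It differed in all 4 comparisons (exact p = 0.0286, adjusted p = 0.0381), by -0.13 with the hairpin in 3D and -0.39 in 2D.

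Col6a3 had 1.59, 1.99, 2.18 and 1.92 CPM in 3D shAnkrd35 libraries and 3.54, 2.96, 3.24 and 3.33 CPM in 3D shGFP libraries, and 0.276, 0.38, 0.369 and 0.396 CPM in 2D shAnkrd35 libraries and 2.25, 3.25, 2.28 and 1.87 CPM in 2D shGFP libraries. The 2D shAnkrd35 libraries, with 0.276 to 0.396 CPM, were below all others. Its hairpin value was -0.75 ± 0.17 (SE, adjusted p = 0.00347) in 3D and -2.48 ± 0.17 (SE, adjusted p = 7.00e-09) in 2D, which is the lowest log2 fold change of any member in any comparison, and the difference was 1.73 ± 0.24 (SE, adjusted p = 8.03e-05). It rose in 3D with shAnkrd35 by 2.18 ± 0.17 (SE, adjusted p = 1.27e-08). The rise with shGFP was 0.45 ± 0.17 (SE, adjusted p = 0.0304), from overlapping groups, and this call ended in 6 of the 16 fits that left out 1 library, without replicates 1, 3 or 4 of 3D shGFP or replicates 1, 3 or 4 of 2D shGFP (adjusted p = 0.0546 to 0.106). With log2(CPM + 1) the 2D hairpin value was -1.32, the difference 0.77 and the rise with shAnkrd35 1.10, all still called. Per length, Col6a3 had 0.166 RPKM over the 16 libraries, beside 131 RPKM for Col6a1 and 36.2 RPKM for Col6a2.

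Col6a1 (chr10:76708792-76726168) and Col6a2 (chr10:76595762-76623630) are both on the minus strand of chromosome 10, 85.2 kb apart. Their RefSeq promoter windows (GRCm38.p6) are shown because the 2 genes moved together in each comparison. The windows are chr10:76725995-76726294 for Col6a1 and, for 2 starts of Col6a2, chr10:76623355-76623654 and chr10:76623581-76623880, read on the minus strand, with the same motifs in capitals.
Col6a1: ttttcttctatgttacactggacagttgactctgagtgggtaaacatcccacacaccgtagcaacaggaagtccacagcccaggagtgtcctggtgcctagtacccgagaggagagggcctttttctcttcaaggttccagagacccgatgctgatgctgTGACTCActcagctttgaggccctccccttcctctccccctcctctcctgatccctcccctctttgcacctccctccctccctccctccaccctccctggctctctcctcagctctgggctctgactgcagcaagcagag
Col6a2, first start: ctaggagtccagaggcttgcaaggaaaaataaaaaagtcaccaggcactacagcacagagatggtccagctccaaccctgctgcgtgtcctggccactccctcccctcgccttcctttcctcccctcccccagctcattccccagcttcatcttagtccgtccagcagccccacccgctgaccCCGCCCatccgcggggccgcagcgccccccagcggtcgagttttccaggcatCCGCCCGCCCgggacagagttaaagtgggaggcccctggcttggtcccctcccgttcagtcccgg
Col6a2, second start: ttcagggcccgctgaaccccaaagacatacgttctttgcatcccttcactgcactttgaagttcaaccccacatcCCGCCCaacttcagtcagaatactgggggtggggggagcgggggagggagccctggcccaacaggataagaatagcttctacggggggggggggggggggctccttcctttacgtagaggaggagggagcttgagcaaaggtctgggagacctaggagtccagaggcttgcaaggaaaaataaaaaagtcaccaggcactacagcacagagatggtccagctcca
The Col6a1 window held 1 AP-1 element and none of the other 3 motifs. The Col6a2 windows held 3 GC boxes and 1 GC box and no other motif. The AP-1 element was the 1 match among the 42 windows of members.

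**Figure D5:**
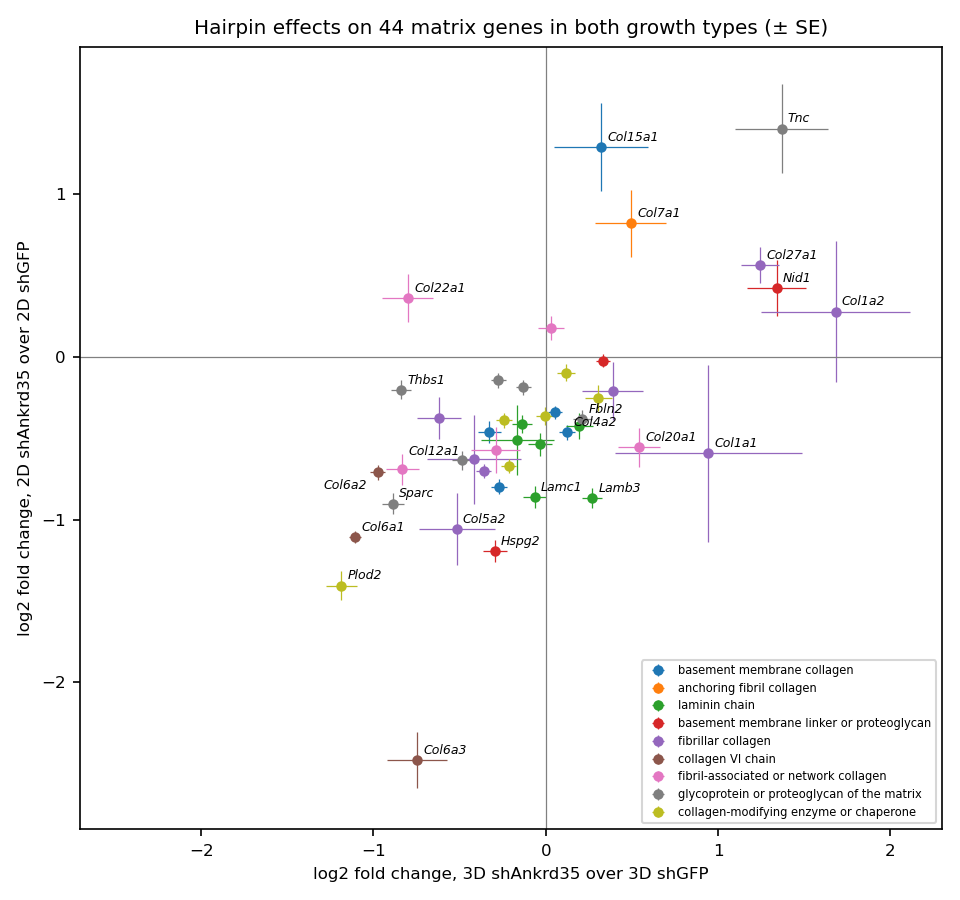
Log2 fold change with the Ankrd35 hairpin in 3D (x axis) and in 2D (y axis) for 44 members, coloured by role, with SE on both axes. Members below 0 on both axes include Col6a1, Col6a2, Col6a3, Plod2 and Sparc, and members above 0 on both include Tnc, Nid1 and Col27a1.

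Of the 5 fibril-associated and network collagens, Col12a1 and Col22a1 were the members lower with the hairpin in 3D. Col12a1, which coats type I fibrils, had 68.3, 77.2, 75.9 and 86.9 CPM in 3D shAnkrd35 libraries and 133, 129.7, 147 and 137 CPM in 3D shGFP libraries, and 284, 203, 206 and 213 CPM in 2D shAnkrd35 libraries and 339, 344, 389 and 379 CPM in 2D shGFP libraries. Both 3D groups were below both 2D groups and no compared groups overlapped, and replicate 1 of 2D shAnkrd35 was above the other 3 of its group. Growth in 3D lowered it by 1.55 ± 0.095 (SE, adjusted p = 9.95e-10) with shAnkrd35 and 1.40 ± 0.095 (SE, adjusted p = 2.12e-09) with shGFP. It was lower with the hairpin by 0.83 ± 0.095 (SE, adjusted p = 6.41e-06) in 3D and 0.69 ± 0.095 (SE, adjusted p = 1.88e-05) in 2D. Col8a1, a short-chain network collagen of vessel walls, had 5.62, 7.15, 4.77 and 5.51 CPM in 3D shAnkrd35 libraries and 6.80, 6.16, 7.10 and 8.03 CPM in 3D shGFP libraries, and 13.9, 10.1, 13 and 13 CPM in 2D shAnkrd35 libraries and 15.1, 23.1, 16.9 and 20 CPM in 2D shGFP libraries. Both 3D groups were below both 2D groups, and the 3D groups overlapped. Its 3D values were lower by 1.11 ± 0.14 (SE, adjusted p = 3.37e-06) with shAnkrd35 and 1.40 ± 0.14 (SE, adjusted p = 2.09e-07) with shGFP, without overlap, and by 0.57 ± 0.14 (SE, adjusted p = 0.00268) with the hairpin in 2D. Col20a1, a fibril-associated collagen, had 13.5, 12.8, 10.7 and 12.6 CPM in 3D shAnkrd35 libraries and 10.4, 9.08, 7.60 and 7.02 CPM in 3D shGFP libraries, and 5.11, 5.75, 4.79 and 5.25 CPM in 2D shAnkrd35 libraries and 7.61, 9.11, 7.0 and 7.30 CPM in 2D shGFP libraries. Its 3D shAnkrd35 libraries were highest and its 2D shAnkrd35 libraries lowest. The hairpin value was 0.54 ± 0.12 (SE, adjusted p = 0.00261) in 3D and -0.56 ± 0.12 (SE, adjusted p = 9.87e-04) in 2D, with a difference of 1.10 ± 0.17 (SE, adjusted p = 1.89e-04). Col22a1, a collagen of tissue junctions, had 6.11, 5.49, 4.77 and 4.52 CPM in 3D shAnkrd35 libraries and 9.41, 9.86, 8.95 and 8.27 CPM in 3D shGFP libraries, and 2.03, 3.23, 2.63 and 2.53 CPM in 2D shAnkrd35 libraries and 1.77, 2.51, 1.76 and 1.98 CPM in 2D shGFP libraries. The 3D shGFP libraries were highest and the 2D groups overlapped. Its hairpin value was -0.80 ± 0.15 (SE, adjusted p = 5.64e-04) in 3D and 0.36 ± 0.15 (SE, adjusted p = 0.0480) in 2D, and the difference was -1.16 ± 0.21 (SE, adjusted p = 6.45e-04). The 2D call ended in 12 of the 16 fits that left out 1 library, all but those without replicates 1 and 4 of 3D shAnkrd35, replicate 1 of 2D shAnkrd35 and replicate 2 of 2D shGFP (adjusted p = 0.0521 to 0.170), and in a fit on the 8 libraries of 2D alone (adjusted p = 0.132). The rise in 3D was 0.99 ± 0.15 (SE, adjusted p = 1.65e-05) with shAnkrd35 and 2.15 ± 0.15 (SE, adjusted p = 1.47e-09) with shGFP. Col16a1, a fibril-associated collagen, passed the test only for 3D against 2D with shAnkrd35, -0.31 ± 0.075 (SE, adjusted p = 0.00156), and this was -0.14 (adjusted p = 0.143) with the length and GC trend removed.

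Of the 7 glycoproteins and proteoglycans, all but Tnc were lower with the hairpin in 2D and in 3D growth with either hairpin, and 5 of them were lower with the hairpin in 3D. Fn1, fibronectin, had 2125, 2033, 2094 and 2232 CPM in 3D shAnkrd35 libraries and 3055, 2857, 3115 and 2861 CPM in 3D shGFP libraries, and 3198, 2668, 2688 and 2649 CPM in 2D shAnkrd35 libraries and 4204, 4159.7, 4540.0 and 4478 CPM in 2D shGFP libraries. No compared groups overlapped, and 2D shGFP was highest. It fell with the hairpin by 0.49 ± 0.059 (SE, adjusted p = 9.10e-06) in 3D and 0.64 ± 0.059 (SE, adjusted p = 1.94e-07) in 2D, and in 3D by 0.40 ± 0.059 (SE, adjusted p = 1.60e-05) with shAnkrd35 and 0.55 ± 0.059 (SE, adjusted p = 4.10e-07) with shGFP. Sparc, a collagen-binding glycoprotein, was lower in all 4 comparisons, with log2 values of -0.89 and -0.90 for the hairpin in 3D and 2D, -0.74 and -0.76 for 3D with shAnkrd35 and with shGFP (SE 0.065 each). Thbs1, thrombospondin 1, which can activate latent TGF-beta, had 168, 177, 182 and 182 CPM in 3D shAnkrd35 libraries and 328, 312, 332 and 297 CPM in 3D shGFP libraries, and 655, 562, 615 and 679 CPM in 2D shAnkrd35 libraries and 698, 764, 692 and 732 CPM in 2D shGFP libraries. The groups were in the order 3D shAnkrd35, 3D shGFP, 2D shAnkrd35, 2D shGFP, low to high, with no overlap between neighbours. Growth in 3D lowered it by 1.82 ± 0.058 (SE, adjusted p = 1.13e-13) with shAnkrd35 and 1.18 ± 0.058 (SE, adjusted p = 1.45e-11) with shGFP. With the hairpin it changed by -0.84 ± 0.058 (SE, adjusted p = 1.50e-08) in 3D and -0.20 ± 0.058 (SE, adjusted p = 0.00632) in 2D, and the difference was -0.64 ± 0.081 (SE, adjusted p = 3.10e-05).

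Fbln2, fibulin 2, a protein of basement membranes and elastic fibres, had 1414, 1367, 1353 and 1376 CPM in 3D shAnkrd35 libraries and 1197, 1165, 1222 and 1173 CPM in 3D shGFP libraries, and 3196, 2725, 2605 and 2662 CPM in 2D shAnkrd35 libraries and 3651, 3460.2, 3752 and 3688 CPM in 2D shGFP libraries. In 3D the shAnkrd35 libraries were above the shGFP libraries, and in 2D they were below, without overlap. The hairpin value was 0.21 ± 0.054 (SE, adjusted p = 0.00672) in 3D and -0.38 ± 0.054 (SE, adjusted p = 1.90e-05) in 2D, with a difference of 0.60 ± 0.077 (SE, adjusted p = 3.19e-05). The 3D value became 0.11 (adjusted p = 0.0519) with the length and GC trend removed. In 3D against 2D it fell by 1.02 ± 0.054 (SE, adjusted p = 8.19e-11) with shAnkrd35 and 1.61 ± 0.054 (SE, adjusted p = 1.17e-13) with shGFP. Fbln1, fibulin 1, changed less: its log2 fold changes lay between -0.32 and -0.15 in the 4 comparisons, all called. The smallest of them lost its call with libraries centred on their medians (hairpin in 2D, -0.10, adjusted p = 0.108), and 3D with shGFP lost it with the length and GC trend removed (-0.09, adjusted p = 0.0640), where its values were -0.16 for 3D with shAnkrd35 and -0.27 for the hairpin in 2D, both called. Bgn, biglycan, a small proteoglycan with leucine-rich repeats and the most abundant member, had 2559, 2353, 2313 and 2279 CPM in 3D shAnkrd35 libraries and 2599.8, 2696, 2531 and 2565 CPM in 3D shGFP libraries, and 3786, 3831, 3908 and 3842 CPM in 2D shAnkrd35 libraries and 4628, 4245, 4459 and 4201 CPM in 2D shGFP libraries. The 3D groups overlapped and were below the 2D groups. It fell in 3D by 0.69 ± 0.045 (SE, adjusted p = 9.86e-10) with shAnkrd35 and 0.75 ± 0.045 (SE, adjusted p = 2.13e-10) with shGFP. Its hairpin value was -0.19 ± 0.045 (SE, adjusted p = 0.00191) in 2D and -0.13 ± 0.045 (SE, adjusted p = 0.0371) in 3D. That 3D call ended in 6 of the 16 fits that left out 1 library, without replicates 2, 3 or 4 of 3D shAnkrd35 or replicates 1, 2 or 4 of 3D shGFP (adjusted p = 0.0614 to 0.111). Tnc, tenascin C, a glycoprotein of remodelled matrix, had 4.12, 3.01, 4.42 and 3.27 CPM in 3D shAnkrd35 libraries and 1.34, 0.974, 1.27 and 2.05 CPM in 3D shGFP libraries, and 1.29, 1.28, 1.06 and 1.09 CPM in 2D shAnkrd35 libraries and 0.684, 0.524, 0.238 and 0.253 CPM in 2D shGFP libraries. The groups did not overlap in any comparison, although no library was above 4.42 CPM. It was higher by 1.37 ± 0.27 (SE, adjusted p = 0.00100) with the hairpin in 3D, 1.40 ± 0.27 (SE, adjusted p = 3.82e-04) in 2D, 1.57 ± 0.27 (SE, adjusted p = 7.16e-05) in 3D with shAnkrd35 and 1.6 ± 0.27 (SE, adjusted p = 6.59e-05) with shGFP. With log2(CPM + 1), the 2D hairpin value was 0.62 and that for 3D with shGFP was 0.75, both called.

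The enzymes and the chaperone were mostly lower with the hairpin in 2D (5 of 6) and in 3D with shGFP (5 of 6). Plod2, the lysyl hydroxylase of collagen telopeptides, had 30.4, 29.2, 27.1 and 29.1 CPM in 3D shAnkrd35 libraries and 68.2, 63.1, 64.8 and 67.7 CPM in 3D shGFP libraries, and 21.5, 17.7, 20.9 and 24.6 CPM in 2D shAnkrd35 libraries and 49.9, 65.8, 50.9 and 58.1 CPM in 2D shGFP libraries. The shAnkrd35 libraries were below the shGFP libraries in both growth types. It fell with the hairpin by 1.19 ± 0.092 (SE, adjusted p = 5.35e-08) in 3D and 1.41 ± 0.092 (SE, adjusted p = 3.05e-09) in 2D. Its growth values, 0.46 ± 0.092 (SE, adjusted p = 2.80e-04) with shAnkrd35 and 0.24 ± 0.092 (SE, adjusted p = 0.0291) with shGFP, ended and turned their sign with the length and GC trend removed, at -0.015 (adjusted p = 0.825) and -0.064 (adjusted p = 0.333). The shGFP call also ended in 4 of the 16 fits that left out 1 library, without replicates 1 or 4 of 3D shGFP or replicates 1 or 3 of 2D shGFP (adjusted p = 0.0642 to 0.0965). Of its exonic bases 6.42% overlap a gene model on the other strand. Serpinh1, which codes for the collagen chaperone Hsp47, had 299, 302, 308 and 295 CPM in 3D shAnkrd35 libraries and 342, 355, 347 and 354 CPM in 3D shGFP libraries, and 601, 673, 614 and 626 CPM in 2D shAnkrd35 libraries and 1055, 956, 1008 and 984 CPM in 2D shGFP libraries. All groups were apart, 3D shAnkrd35 lowest and 2D shGFP highest. Growth in 3D lowered Serpinh1 by 1.06 ± 0.042 (SE, adjusted p = 1.87e-12) with shAnkrd35 and 1.52 ± 0.042 (SE, adjusted p = 8.71e-15) with shGFP. With the hairpin the change was -0.22 ± 0.042 (SE, adjusted p = 8.80e-04) in 3D and -0.67 ± 0.042 (SE, adjusted p = 1.76e-09) in 2D, and the difference was 0.46 ± 0.059 (SE, adjusted p = 3.62e-05). P4ha1, the catalytic chain of the main prolyl 4-hydroxylase, had 55.8, 54.2, 56.7 and 51.1 CPM in 3D shAnkrd35 libraries and 62.6, 64.3, 66.0 and 64.7 CPM in 3D shGFP libraries, and 109.7, 97.2, 104 and 99.8 CPM in 2D shAnkrd35 libraries and 139.9, 133, 134 and 132 CPM in 2D shGFP libraries. No compared groups overlapped. It fell by 0.91 ± 0.045 (SE, adjusted p = 3.34e-11) and 1.06 ± 0.045 (SE, adjusted p = 2.49e-12) in 3D with shAnkrd35 and with shGFP, and by 0.24 ± 0.045 (SE, adjusted p = 6.03e-04) and 0.39 ± 0.045 (SE, adjusted p = 2.22e-06) with the hairpin in 3D and 2D. P4ha2, its paralogue, was lower with the hairpin in 2D, -0.25 ± 0.079 (SE, adjusted p = 0.0114), and higher in 3D, 0.31 ± 0.079 (SE, adjusted p = 0.00691). The 2D call ended with library weights, at -0.12 (adjusted p = 0.146), and without both 2D libraries numbered 1, a setting chosen after the data were seen, at -0.17 (adjusted p = 0.0691). Plod1 and Plod3, the other lysyl hydroxylases, fell in 3D with either hairpin (-0.35 and -0.71 for Plod1, -0.44 and -0.66 for Plod3, with shAnkrd35 and with shGFP), and Plod1 fell with the hairpin in 2D (-0.36). The Plod3 value with shAnkrd35 was -0.27 (adjusted p = 8.23e-05) without the length and GC trend. Of the exonic bases of Plod3, 11.7% overlap a gene model on the other strand.

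The hairpin effect in 3D was compared with that in 2D by an interaction term. It was higher in 3D for 21 members and lower for 3 (46.7% and 6.67%), beside 17.1% and 18.6% of all genes tested. The median difference was 0.35 over the members and 0.0029 over all genes. The 3 lower ones were Col22a1, Thbs1 and Col6a2. Of the 18 members lower in 3D shAnkrd35 than in 3D shGFP, 17 were also lower in 2D shAnkrd35 than in 2D shGFP (94.4% of the 3D list and 54.8% of the 31 of the 2D list), and these 2 comparisons share no library. Of all genes tested, 52.4% of those lower with the hairpin in 3D were lower in 2D, and 26.6% of those lower in 2D were lower in 3D. Of the 11 members higher with the hairpin in 3D, 4 were also higher in 2D (36.4%), where 60.2% of all genes higher in 3D were. That is 8.89% of the members, beside 9.07% of all genes tested. Nid1, Col27a1 and Tnc were among those higher in both. Col4a2, Lamb3, Col20a1, Fbln2 and P4ha2 were higher with the hairpin in 3D and lower in 2D, and Col22a1 was lower in 3D and higher in 2D. In the 2 growth comparisons, which share no library either, 18 members were lower in both and 12 higher in both, 40% and 26.7% of the members, beside 24.2% and 24.7% of all genes tested.

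Other genes of the pathway were counted from lists. Beside them, 15.0% of all genes tested were higher and 14.6% lower with the hairpin in 3D, and 29.0% and 28.8% in 2D. In 3D against 2D, 34.4% were higher and 36.0% lower with shAnkrd35, and 35.2% and 32.1% with shGFP. No list was tested against these shares. Of 28 tested genes for collagen processing and secretion, 6 were higher and 8 lower with the hairpin in 3D, and 5 were higher and 14 lower in 2D. The median log2 fold change was -0.022 in 3D and -0.15 in 2D with the hairpin. In 3D against 2D, 3 were higher and 19 lower with shAnkrd35, and 2 were higher and 19 lower with shGFP. Kdelr3, a receptor that returns proteins to the endoplasmic reticulum, fell with the hairpin by 1.36 ± 0.13 (SE, adjusted p = 6.28e-07) in 3D and 1.40 ± 0.13 (SE, adjusted p = 1.89e-07) in 2D. Loxl3, a lysyl oxidase that cross-links collagen, fell in 3D by 1.15 ± 0.079 (SE, adjusted p = 2.28e-09) with shAnkrd35 and 0.91 ± 0.079 (SE, adjusted p = 2.99e-08) with shGFP. Creb3l1, a transcription factor of the secretory pathway and of collagen genes, fell in 3D with shGFP by 1.70 ± 0.16 (SE, adjusted p = 6.62e-08), and its hairpin effect was higher in 3D than in 2D by 1.43 ± 0.22 (SE, adjusted p = 1.98e-04). Of 21 other structural matrix genes, 4 were higher and 10 lower with the hairpin in 3D, and 5 were higher and 11 lower in 2D. In 3D against 2D, 8 were higher and 10 lower with shAnkrd35, and 9 were higher and 7 lower with shGFP. The median log2 fold change with the hairpin was -0.29 in 3D and -0.27 in 2D for this list. Npnt, nephronectin, an integrin ligand of basement membranes, fell by 0.72 ± 0.046 (SE, adjusted p = 5.91e-09) in 3D and 0.82 ± 0.046 (SE, adjusted p = 4.23e-10) in 2D. Tnxb, tenascin X, rose in 3D by 2.17 ± 0.075 (SE, adjusted p = 3.33e-13) with shAnkrd35 and 1.26 ± 0.075 (SE, adjusted p = 2.14e-10) with shGFP. Of 15 matrix receptors other than integrins, 2 were higher and 7 lower with the hairpin in 3D, and 5 were higher and 7 lower in 2D. In 3D against 2D, 4 were higher and 8 lower with shAnkrd35, and 3 were higher and 8 lower with shGFP. The hairpin median was -0.088 in 3D and -0.0028 in 2D for this list. Ddr2, a receptor for fibrillar collagen, fell with the hairpin by 0.61 ± 0.11 (SE, adjusted p = 6.84e-04) in 3D and 1.08 ± 0.11 (SE, adjusted p = 1.18e-06) in 2D. Of 19 genes of the TGF-beta pathway, which induces many matrix genes, 2 were higher and 6 lower with the hairpin in 3D, 5 were higher and 6 lower in 2D, and in 3D against 2D 3 were higher and 13 lower with shAnkrd35, and 4 higher and 10 lower with shGFP. The hairpin median was -0.088 in 3D and -0.0094 in 2D for this list. Its hairpin counts in 2D lay near the shares of all genes. Tgfb3, a ligand, fell in 3D by 1.18 ± 0.061 (SE, adjusted p = 5.33e-11) with shAnkrd35 and 0.75 ± 0.061 (SE, adjusted p = 1.09e-08) with shGFP.

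Markers of other cells moved between the groups as well. Of the 7 fibroblast markers with rows, 1 was higher and 3 were lower with the hairpin in 3D and likewise in 2D, and 0 were higher and 4 lower in 3D against 2D with either hairpin. The shares of all genes tested are those given with the lists above. Acta2, a smooth muscle and myofibroblast actin, had 9.52 ± 0.610 CPM in 3D shAnkrd35, 10.2 ± 0.814 in 3D shGFP, 115 ± 10.3 in 2D shAnkrd35 and, for 2D shGFP, 66.8 ± 3.67. It made up most of the summed level of these markers in 2D. Acta2 fell in 3D by 3.58 ± 0.074 (SE, adjusted p = 6.22e-16) with shAnkrd35 and 2.70 ± 0.074 (SE, adjusted p = 7.32e-15) with shGFP, and rose with the hairpin in 2D by 0.78 ± 0.074 (SE, adjusted p = 2.33e-07), while its hairpin value in 3D was -0.095 ± 0.074 (SE, adjusted p = 0.373). Pdgfrb, a receptor of mesenchymal cells, fell with the hairpin by 1.41 ± 0.11 (SE, adjusted p = 6.60e-08) in 3D and 0.86 ± 0.11 (SE, adjusted p = 7.43e-06) in 2D. In 3D against 2D its value was -0.33 ± 0.11 (SE, adjusted p = 0.0134) with shAnkrd35 and 0.22 ± 0.11 (SE, adjusted p = 0.0890) with shGFP. Meox2, a homeobox factor, fell with the hairpin by 1.97 ± 0.28 (SE, adjusted p = 5.68e-05) in 3D and 2.04 ± 0.28 (SE, adjusted p = 1.81e-05) in 2D, and its growth values were 0.60 ± 0.28 (SE, adjusted p = 0.0697) with shAnkrd35 and 0.53 ± 0.28 (SE, adjusted p = 0.108) with shGFP. Of these 3 markers, only Acta2 was lower in 3D by the test with both hairpins. Of 10 endothelial markers 3 had rows, with a sum of 8.07 to 9.29 CPM in 3D shAnkrd35, 6.39 to 7.22 in 3D shGFP, 11.8 to 15.4 in 2D shAnkrd35 and 6.96 to 7.65 in the 2D shGFP libraries, and the defining Pecam1, Cdh5 and Kdr had none. Of 8 macrophage markers 4 had rows, with a sum of 152 to 177 CPM in 3D shAnkrd35, 130.0 to 140.4 in 3D shGFP, 82.9 to 90.4 in 2D shAnkrd35 and 42.8 to 44.5 in the 2D shGFP libraries, and Ptprc, Adgre1, Csf1r and Itgam had none. Cd14 made up most of the macrophage sum in every group. Cd68 averaged at most 4.69 CPM (3D shGFP) and Lyz2 at most 4.24 CPM (2D shAnkrd35), with an uneven 3.00 ± 3.93 CPM in 3D shAnkrd35. Mrc1 averaged 21.0 CPM in 3D shAnkrd35, 15.4 in 3D shGFP, 2.87 in 2D shAnkrd35 and 1.59 in 2D shGFP. The part of the markers of other cells in the members' values was not tested. The members' transcripts were longer and richer in GC than those of the genes tested, with a median of 6943 bases and 55.2% GC, against 4409 bases and 49.7%. With the length and GC trend removed, 159 of the 166 calls on members held, over the 5 comparisons.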

How the data were processed

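RNA-seq of 16 libraries was analysed from 1 deposited table. Reads were trimmed with Trimmomatic 0.38 and aligned with STAR 2.5.1b to mm10, and edgeR was used, per the submitters' processing notes; which counter, annotation, strand setting and row filter were used is not given in the sources read here. The deposited values are log2 CPM, to which a prior averaging 2 reads had been added: all values gave whole reads (within 0.01) when it was taken off. CPM and per-library reads printed are these recovered values, CPM being on the normalised library sizes of the deposited values, and RPKM uses GENCODE M21 exonic lengths (12217 symbols matched, 104 did not). Genes with at least 1 CPM, prior included, in at least 4 libraries were kept, 12320 in all; Ankrd35 was removed. The deposited log2 values were fitted with limma 3.58.1 (R 4.3.3; trend and robust) as 4 group means over 16 libraries, with Benjamini-Hochberg adjustment over all genes and a threshold of 0.05. Fold changes include the prior, which understates changes of low genes. Ratios were tested by exact permutation, two-sided. The limma script was tested on simulated data. The counts of members are over all 45, of which 1 is not reported singly here. Members and lists were chosen with earlier results of these data known. All 16 values are given for members with an adjusted p under 0.05 and a log2 fold change of at least 1 either way in a pairwise comparison, and for the 8 with the highest mean CPM. Up to 3 genes of smallest p per comparison could be named from other lists. Alternatives were other log scales, filters, scalings, weights, moderation, a replicate block, a fold minimum, the compared libraries alone, and leaving out libraries.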

Additional observations from a re-analysis of the deposited data

Results flagged for a closer look

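Among the 29 members printed in full, 8 of 116 groups of 4 libraries held 1 library far from the other 3 by Dixon's criterion on CPM. That criterion flags about 1 of 20 independent groups of normal values. These groups share the same 16 libraries, so their count cannot be set against that rate. Col15a1 had 0.304 CPM in replicate 4 of 2D shGFP, where the other 3 had 0.0805 to 0.105 CPM. Lama2 had 1.09 CPM in replicate 4 of 3D shAnkrd35, where the others had 0.652 to 0.702 CPM. Col1a2 had 10.5 CPM in replicate 3 of 3D shAnkrd35, where the others had 1.66 to 2.91 CPM, and 1.55 CPM in replicate 4 of 3D shGFP, where the others had 0.695 to 0.779 CPM. The other 4 cases were all replicate 1 of 2D shAnkrd35: Lamb1 had 470.5 CPM there (383 to 393 in the others), Col12a1 had 284 CPM (203 to 213), Hspg2 had 703 CPM (575 to 597) and Fn1 had 3198 CPM (2649 to 2688).

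The hairpin effect differed between 3D and 2D for 14 of these members, by limma's interaction term with an adjusted p under 0.05. Of all genes tested, 17.1% had a higher effect in 3D and 18.6% a lower one. Most of these 29 members were picked by their fold changes in these same data, so the shares cannot be set side by side. The hairpin effect was higher in 3D, on the log2 scale, by 1.73 for Col6a3, 1.14 for Lamb3, 1.10 for Col20a1, 0.92 for Nid1 and 0.90 for Hspg2. The difference was 0.68 for Col27a1, 0.62 for Lama5, 0.60 for Fbln2, 0.46 for Serpinh1, 0.40 for Col18a1 and 0.28 for Lamb1, which was 0.16 (adjusted p = 0.0257) with the length and GC trend removed. It was lower in 3D for Col22a1 (-1.16), Thbs1 (-0.64) and Col6a2 (-0.26). For Col6a3, Hspg2 and Serpinh1, the higher effect in 3D was a smaller fall with the hairpin than in 2D. Lamb1 too was lower with the hairpin in 3D, at a mean of 243 CPM beside 268 CPM in 3D shGFP, without passing the test.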

How the results depend on the processing

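Counts of members called moved by over 1.5 times under 2 settings. With a mean of at least 5 CPM required, 33 members and 10250 genes were tested: 12 members (36.4%, beside 33.2% of genes) were higher in 3D with shAnkrd35, 6 (18.2%, beside 34.7%) were higher in 3D with shGFP and 2 (6.06%, beside 30.8%) were higher with the hairpin in 2D. With at least 1.5-fold required, the hairpin gave 5 higher and 9 lower in 3D (beside 3.69% and 3.04% of all genes) and 3 higher and 14 lower in 2D (beside 6.92% and 11% of all genes). There 11 were lower in 3D with shAnkrd35 (24.4%, beside 9.72% of genes), and 11 had a higher hairpin effect in 3D than in 2D (24.4%, beside 7.29%). Of 3089 alternative values for 112 single-gene results, 2977 kept call and direction, 110 lost the call and 2 reversed: Plod2 in 3D against 2D, at -0.015 with shAnkrd35 and -0.064 with shGFP once the length and GC trend was removed. Without single libraries, members called higher and lower were 10 to 13 and 17 to 19 for the hairpin in 3D, 5 to 7 and 29 to 32 in 2D, 19 to 21 and 17 to 20 for 3D with shAnkrd35, 10 to 12 and 25 to 27 with shGFP, and 20 to 23 and 3 to 4 for the difference. The trend removal and the fit without both 2D libraries numbered 1 were chosen after seeing the data. Same-numbered libraries did not deviate together (correlations -0.48 to 0.21, and at most 1 of 4 in a group best with its own number). The values thus showed no pairing by number, but the labels do not say whether same-numbered libraries were prepared together. With the replicate block, members higher and lower were 10 and 18 for the hairpin in 3D, 6 and 31 in 2D, 19 and 19 for 3D with shAnkrd35, 12 and 25 with shGFP, and 21 and 3 for the difference; Col4a2 in 3D (adjusted p = 0.0707) and Nid1 (0.0656) and Lama2 (0.0521) in 2D lost their calls in limma. Other calls that ended, beside those given with the genes, were Col5a3 (hairpin in 2D) with library weights (adjusted p = 0.083); Nid1 (0.138) in 2D and Col3a1 (0.0516) in 3D with shAnkrd35 in fits on the compared libraries alone; with libraries centred on their medians Bgn (0.196) with the hairpin in 3D, Lama2 (0.0703) in 2D, and Plod2 (0.0809) and Col6a3 (0.0733) in 3D with shGFP; and without both 2D libraries numbered 1 Lama2 (0.0526), Plod2 (0.0933) and Col6a3 (0.0571) in those same comparisons. Col4a2 with the hairpin in 3D (0.066) lost it without trend and robust moderation, Col22a1 in 2D with log2(CPM + 1) (0.0618) and log2(CPM + 0.25) (0.0504), and the Plod3 difference with median centring (0.0726), all in limma. The Plod3 difference also lost its call in 8 of the 16 limma fits that left out 1 library (adjusted p = 0.0521 to 0.0720). Depth limits the 15 members under 10 CPM most.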
